A study of Chlamydomonas reinhardtii with 6 samples.

Results

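The copper-response genes described here are 7 genes of the green alga Chlamydomonas reinhardtii, taken by their identifiers from a count table of 17741 genes. They are CYC6 (Cre16.g651050), CPX1 (Cre02.g085450), CRD1 (Cre07.g346050), CTH1 (Cre12.g510050), CRR1 (Cre09.g390023), CTR1 (Cre13.g570600) and CTR2 (Cre10.g434350). They were listed by identifier for their known role, a choice made with earlier results of these data at hand. Expression was measured by RNA-seq in harvested algae, as reads counted per gene, in 6 libraries. A cell group isolate, taken from a line of strain cc1009 selected under rotifer predation, was set against a single cell isolate from a cc1009 line kept without the predator. Both isolates grew in chemostats on COOL80 medium for 10 days and were then kept for 5 days as they were (control), with rotifers added, or with the supply switched to 40 µM nitrogen (low nitrogen). The RNA of the replicate chemostats of a condition was pooled before sequencing, so each morphotype in each treatment is 1 library without a replicate. With 1 isolate for each morphotype, what is written below of a morphotype holds for that isolate.

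Chlamydomonas has a well-studied response to copper shortage. When copper is scarce, the transcription factor CRR1 switches on genes that spare the metal or take it up, among them CYC6, whose product cytochrome c6 replaces the copper protein plastocyanin in photosynthetic electron transport. CRR1 also acts on CPX1 and CRD1, enzymes of the pathway to heme and chlorophyll, and on the copper transporters of the CTR family. The same targets respond to low oxygen and to nickel in this alga. CTH1 is the relative of CRD1 whose protein is abundant where copper and oxygen are plentiful, so the pair is known for opposite behaviour. None of the treatments here was one of copper supply, and the copper status of the cultures was not tested.

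Library totals ran from 5453218 to 9054895 counts, and the rotifer library was the smallest of each morphotype. Levels are given in CPM, counts divided by library size after scaling by TMM (trimmed mean of M-values). A floor of 3 counts lay between 0.309 and 0.573 CPM, and such floors and all intervals below cover counting error only. Levels were not compared between genes, since only gene spans with introns were at hand. Of the 7 genes, 6 passed the filter on low counts (1.30 CPM in at least 3 libraries and 15 counts in all), as did 14136 genes of the whole table. In material of this kind a lower level in a library may be fewer cells that express a gene or less RNA per cell, which cannot be told apart.

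CYC6, the gene that marks copper-deficient cells, had few counts in every library, between 0 and 7 against a floor of 3 counts. It lies on chromosome 16 at 1238558 to 1240109 (positions throughout are those of the RefSeq v5.5 assembly). In single cells it had 1 count in control, 7 under rotifers and 0 in low nitrogen, where the 95% counting interval reached 0.434 CPM. In cell groups it had 6, 1 and 6 counts. The 21 counts came from a total of 44440585, and the highest library held 7 of them. Pooled over treatments, cell groups had 13 counts and single cells 8, a ratio of 1.84 with a 95% exact interval of 0.707 to 5.12. A difference between the morphotypes over all treatments was therefore not detectable at this depth, and CYC6 entered no test across genes. Pooling joined opposite orders, since single cells had more counts under rotifers and cell groups in control and low nitrogen. Fitted without the filter, CYC6 was 1.19 higher in cell groups on the log2 scale (SE 1.59, adjusted p = 0.732 by edgeR).

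**Figure D1:**
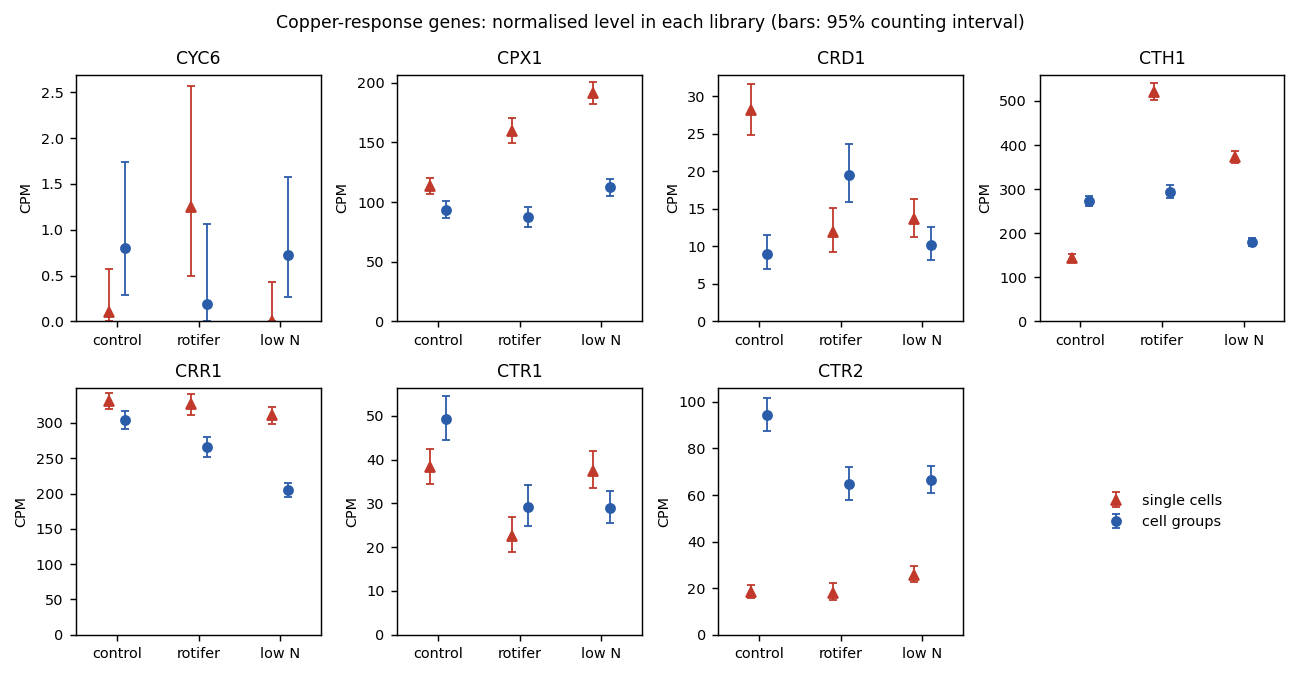
Level of each copper-response gene in CPM (vertical axes, each from 0, with their own scale) in control, rotifer and low-nitrogen (low N) libraries of single cells (triangles) and cell groups (circles). Each point is 1 library and bars are 95% counting intervals. CYC6 reaches at most 1.25 CPM, and CTR2 is between 64.6 and 94.5 CPM in cell groups against 18.1 to 25.7 CPM in single cells.

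CTR2 was the tested member with the largest difference between the morphotypes. CTR1 and CTR2 encode copper transporters of the cell membrane, and CTR2 lies on chromosome 10 at 2263855 to 2268812. In single cells CTR2 had 178 counts in control, 102 under rotifers and 219 in low nitrogen, or 18.4, 18.1 and 25.7 CPM. In cell groups it had 709, 338 and 553 counts, or 94.5, 64.6 and 66.5 CPM. Every cell group library lay above every single cell library, and the lowest cell group value was more than double the highest single cell value. The means were 75.2 ± 16.7 CPM in cell groups and 20.7 ± 4.33 CPM in single cells (SD over the 3 treatments, which holds treatment effects as well as error). Within treatments the cell group library was 5.04-fold higher in control, 3.49-fold under rotifers and 2.55-fold in low nitrogen on the log2(CPM + 0.5) scale. CTR2 had the widest range over the libraries among the 6 tested members, 2.35 on the log2 scale, wider than 84.4% of all tested genes.

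The test between the morphotypes was the quasi-likelihood test of edgeR on the 6 libraries, adjusting for treatment. Benjamini-Hochberg adjustment was over all tested genes. The treatments thus stood as the replicates. The p-values set the morphotype difference against how much it varied from treatment to treatment in these pooled libraries. Responses of opposite direction in the morphotypes add to that variation. CTR2 rose in cell groups by 1.85 on the log2 scale (SE 0.29, adjusted p = 0.0164), 3.61-fold, and ranked 388 by p. It was the only 1 of the 6 tested members to pass an adjusted p of 0.05, while 7.62% of all tested genes passed (1077 genes, 673 of them higher and 404 lower), so the members' count did not stand out from the background. The call was lost when a rotifer library was left out, with an adjusted p of 0.11 without that of single cells and 0.109 without that of cell groups, at a log2 fold change of 1.87 in each case. Leaving out either library removes the whole rotifer treatment from this contrast, so these are not separate results. Over all other alternatives the adjusted p of CTR2 ran from 2.65e-05 to 0.0489.

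CTR1, on chromosome 13 at 1254126 to 1259806, did not follow CTR2. Under control, rotifers and low nitrogen CTR1 had 371, 127 and 319 counts for single cells, against 370, 153 and 241 for cell groups. The corresponding levels were 38.2, 22.6 and 37.5 CPM for single cells, against 49.3, 29.2 and 29.0 CPM for cell groups, so the morphotypes overlapped. Its log2 difference between cell groups and single cells was 0.12 (SE 0.27, adjusted p = 0.824 by edgeR), and its sign changed when some libraries were left out.

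The relation of the 2 transporters can be read within each library, where no scaling enters. CTR2 made up 32.4% of the CTR1 and CTR2 counts in control, 44.5% under rotifers and 40.7% in low nitrogen for single cells. In cell groups its share was 65.7%, 68.8% and 69.6%. The 95% Wilson intervals of the single cell libraries ended at 51.0% at the highest, and those of the cell group libraries began at 62.8% at the lowest. CTR1 thus had more counts than CTR2 in every single cell library and fewer in every cell group library, an order of counts and not of levels. How reads that match several genes of this family were assigned is not given in the sources used here.

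**Figure D2:**
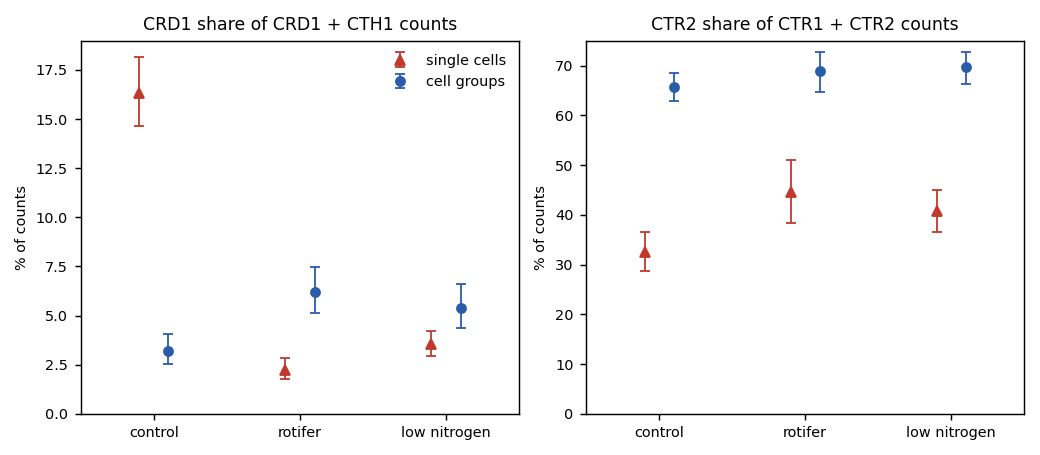
Left, CRD1 counts as a percentage of CRD1 and CTH1 counts, and right, CTR2 counts as a percentage of CTR1 and CTR2 counts (vertical axes from 0), in single cells (triangles) and cell groups (circles) by treatment, 1 library a point with 95% Wilson intervals. The CTR2 share is between 65.7% and 69.6% in cell groups and between 32.4% and 44.5% in single cells, and the CRD1 share of 16.3% in the single cell control library lies above the others.

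CRR1, the regulator, had the narrowest range of the 6 tested members over all libraries, though CPX1 had a narrower one within cell groups. The gene lies on chromosome 9 at 3562194 to 3569138. Single cells had 3208, 1834 and 2643 counts, or 331, 326 and 311 CPM under control, rotifers and low nitrogen. Cell groups had 2283, 1390 and 1703 counts, or 304, 266 and 205 CPM. The single cell libraries lay within 1.06-fold of each other, and each was above all cell group libraries. Its SD over treatments was 0.05 on the log2 scale in single cells and 0.29 in cell groups, where the medians over all tested genes were 0.42 and 0.30. The difference between the morphotypes did not pass the test, with a log2 fold change of -0.34 (SE 0.26, adjusted p = 0.47 by edgeR).

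CPX1 encodes coproporphyrinogen oxidase, a step shared by the routes to heme and chlorophyll, and lies on chromosome 2 at 1646979 to 1650920. Under control, rotifers and low nitrogen its counts were 1099, 896 and 1626 for single cells, against 701, 456 and 933 for cell groups. In CPM these were 113, 159 and 191 for single cells, against 93.4, 87.1 and 112 for cell groups. The cell group values were all lower, but the highest of them nearly met the lowest single cell value. The log2 fold change of -0.64 (SE 0.26) had an unadjusted p of 0.0445 and an adjusted p of 0.189 in the edgeR fit.

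Groups whose values did not overlap were thus seen for 3 of the 6 tested members, though for CPX1 and CRR1 the counting intervals of the nearest libraries overlapped. CPX1 and CRR1 were lower in every cell group library, which held for 14.3% of all tested genes, and CTR2 was higher in every one, which held for 16.3%. An exact permutation test of 3 against 3 libraries cannot give a p below 0.1, so no p is attached to these counts. Among the 6 members the median log2 fold change was -0.34, against 0.01 over all tested genes, with 2 members higher and 4 lower in cell groups.

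**Figure D3:**
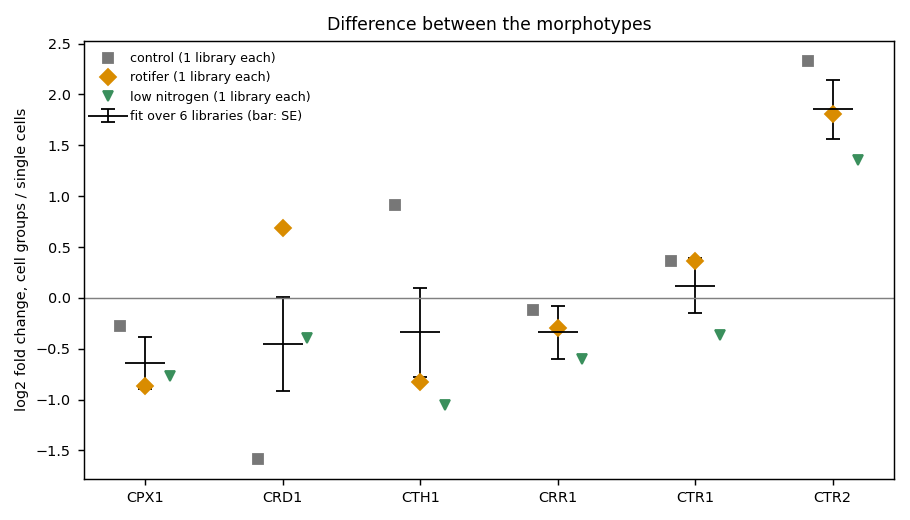
Log2 ratio of cell groups to single cells for the 6 tested members. Black marks are the edgeR estimates over 6 libraries with treatment as a covariate and their standard errors, and coloured points are differences between single libraries within control, rotifer and low nitrogen. CTR2 is above 0 in each treatment, while CRD1 and CTH1 lie on both sides of 0.

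CRD1 and CTH1 changed order between the morphotypes from treatment to treatment. CRD1 encodes a subunit of the aerobic cyclase that closes the fifth ring of chlorophyll, and CTH1 encodes its relative in the same step. CRD1 lies on chromosome 7 at 4866866 to 4871395 and CTH1 on chromosome 12 at 2024726 to 2027967. Under control, rotifers and low nitrogen CRD1 had 273, 67 and 116 counts for single cells, against 68, 102 and 85 for cell groups, and it had the fewest counts of the tested members in total, 711. Its levels were 28.1, 11.9 and 13.6 CPM for single cells, against 9.06, 19.5 and 10.2 CPM for cell groups. The single cell control library was the highest and the cell group control library the lowest of the 6. CTH1 had 1400, 2926 and 3167 counts for single cells, against 2044, 1538 and 1489 for cell groups. Its levels were 144, 520 and 372 CPM for single cells, against 272, 294 and 179 CPM for cell groups, so that for CTH1 the single cell control library was the lowest of the 6. Copper-deficient cells are known to make a longer form of the CTH1 transcript, which counts per gene cannot separate.

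Neither gene passed the test between the morphotypes. The log2 fold change was -0.46 for CRD1 (SE 0.46, adjusted p = 0.597 by edgeR) and -0.34 for CTH1 (SE 0.44, adjusted p = 0.682 by edgeR). Both signs turned when libraries were left out. Without the control library of cell groups, CTH1 had a log2 fold change of -0.99 and an adjusted p of 0.0421, a contrast that holds only the rotifer and low-nitrogen libraries. Without that of single cells the values were -0.94 and 0.057. In control alone CRD1 had a log2 difference of -1.58 and CTH1 was 1.88-fold higher in cell groups, while under rotifers CRD1 was 1.61-fold higher and CTH1 1.77-fold lower.

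Within each library, CRD1 made up 16.3% of the counts of the pair in the single cell control (95% Wilson interval 14.6 to 18.2%). It made up 2.24% under rotifers and 3.53% in low nitrogen in the same morphotype. In cell groups its share was lowest in control, at 3.22%, against 6.22% under rotifers and 5.40% in low nitrogen. The control library thus had the highest share among single cells and the lowest among cell groups. CTH1 had more counts than CRD1 in all 6 libraries, from 5.13 times as many in the single cell control to 43.7 times in the single cell rotifer library. These multiples are of counts and not of levels, which were not compared between genes.

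The differences between morphotypes within a treatment set 1 library against 1, depend on the scaling and carry no test. In control 2 of the 6 tested members differed at least 2-fold, CTR2 higher and CRD1 lower in cell groups, where 28.5% of all tested genes did. Under rotifers CTR2 alone did, with 26% of all tested genes past the same size. In low nitrogen CTR2 was higher and CTH1 was 2.08-fold lower, with 26.7% of all tested genes past 2-fold.

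The treatments were compared in the same edgeR fit with morphotype as a covariate, each treatment having 2 libraries. Rotifer was set against control, low nitrogen against control, and rotifer against low nitrogen. No member passed an adjusted p of 0.05 in any of them, and none had an unadjusted p under 0.05. Among all tested genes 0% passed in each comparison, and the genes under 0.05 before adjustment numbered 1019, 816 and 863. The Wald test of DESeq2 called 83, 53 and 55 genes, none of them a member, and limma called 0. Among the members, the treatment difference of lowest p was that of CTR1, which was 1.69-fold lower under rotifers than in control (log2 fold change -0.76, SE 0.33, adjusted p = 0.663). It was lower in both morphotypes, 1.68-fold in single cells and 1.67-fold in cell groups. CTH1 had the largest estimate under rotifers, 0.87 on the log2 scale (SE 0.53, adjusted p = 0.687). Without the control library of cell groups that estimate was 1.94 with an adjusted p of 0.0185, a setting in which 1011 of all tested genes passed and control was the single cell library alone. Without the single cell control library it was 0.053 with an adjusted p of 0.998.

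**Figure D4:**
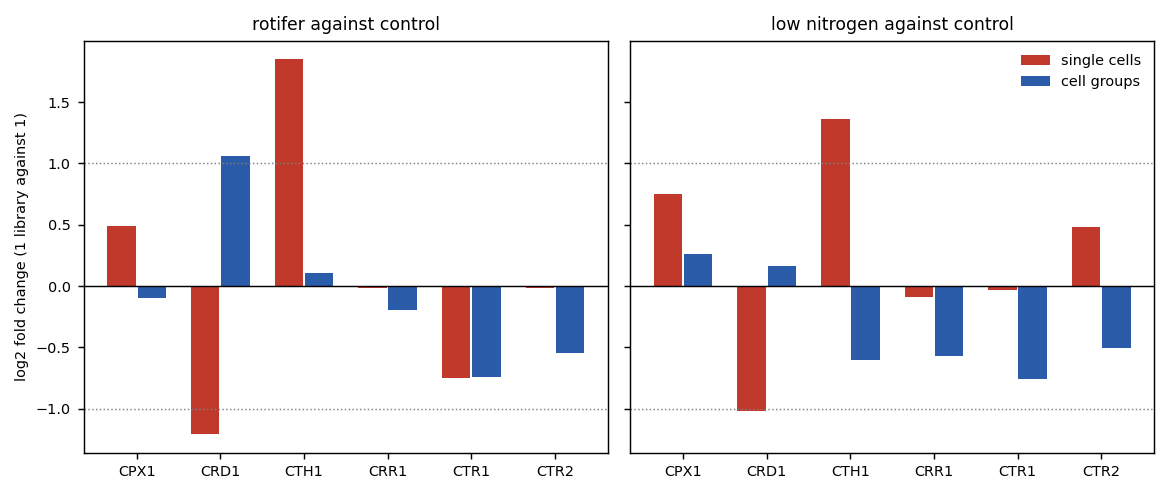
Log2 fold change of the rotifer library (left) and the low-nitrogen library (right) against the control library of the same morphotype, with single cells in red and cell groups in blue. Bars start at 0, each compares 1 library with 1, and dotted lines mark 2-fold. CTH1 is 3.60-fold and 2.57-fold above its control in single cells, and CRD1 is below its control in single cells and above it in cell groups.

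Within single cells, CTH1 and CRD1 were the tested members that differed at least 2-fold from control in both treatments. CTH1 was 3.60-fold higher under rotifers and 2.57-fold higher in low nitrogen, and CRD1 was 2.31-fold and 2.03-fold lower. These differences share 1 control library, and 26.8% of all tested genes were past 2-fold under rotifers and 22% in low nitrogen. CPX1 was 1.40-fold and 1.68-fold higher than control, CRR1 was within 1.06-fold of it, and CTR2 was 1.39-fold higher in low nitrogen. In cell groups fewer members passed that size. CRD1 was 2.09-fold higher under rotifers than in control, from 102 against 68 counts, and was the only tested member past 2-fold there, with 7.99% of all tested genes. No tested member passed 2-fold in low nitrogen, where 10.8% of all tested genes did and the members ran from 1.69-fold lower for CTR1 to 1.20-fold higher for CPX1. CRR1 was 1.15-fold lower under rotifers and 1.48-fold lower in low nitrogen, and CTR2 was 1.46-fold and 1.42-fold lower.

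As a description of how the members varied together, Pearson's r and Spearman's rho were taken for the 15 pairs of tested members over log2 levels in the 6 libraries, which share the isolates, the controls and the scaling. CTR2 had negative values with CPX1 (r -0.71, rho -0.66) and CRR1 (r -0.61, rho -0.77), the largest in size by r and by rho respectively. These pairs take in the difference between the morphotypes, since CTR2 was higher and CPX1 and CRR1 were lower in every cell group library. Within cell groups CTR2 and CRR1 were both highest in control, but in single cells CRR1 was lowest in low nitrogen, where CTR2 was highest. Within single cells CTR2 and CPX1 were both highest in low nitrogen, but in cell groups CTR2 was highest in control and CPX1 in low nitrogen. The highest positive r was 0.51, for CPX1 and CTH1 (rho 0.37), while the highest rho was 0.60, for CPX1 and CRR1 (r 0.35). CRD1 and CTH1 had an r of -0.40 and a rho of -0.14, so the order of the pairs depended on the measure. The 6 genes did not move as a block. Their highest level was in the single cell control library for CRD1 and CRR1, in the single cell rotifer library for CTH1, in the single cell low-nitrogen library for CPX1, and in the cell group control library for CTR1 and CTR2. The lowest level was in the single cell control library for CTH1 and in the single cell rotifer library for CTR1 and CTR2.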

How the data were processed

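After quality checks in FastQC, the authors aligned the reads to Chlamydomonas genome version 5.0 (hisat2), and HTSeq gave the read counts per gene, deposited without normalization. Versions and the strand setting are not given in the sources used here. The 5 columns of the authors' means, the table of DESeq2-normalized values and the table of the authors' own log fold changes and adjusted p-values were not used. The paper notes that more reads of the rotifer libraries failed to map to the alga.

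Tests used edgeR 4.0.16 (quasi-likelihood, trimmed mean of M-values (TMM) scaling, treatment and morphotype in 1 model, 2 residual degrees of freedom) in R 4.3.3. They were adjusted by Benjamini-Hochberg over 14136 genes, and the code was run on simulated data. That simulation had 1 fixed spread for all genes and no difference other than the one tested, so it does not give the error rate in these data. SE is the fold change over the root of F. Alternatives used DESeq2 1.42.0 and limma 3.58.1. Single-library differences used log2(CPM + 0.5). Every member was named, whatever its values. The members, lists and tests were chosen with earlier results of these data known. Of 25 further genes listed for the pathway, the RefSeq table names 0, so those lists were not analysed here. Likeness to CYC6 was not computed, given its counts. Gene sequences were not used here. The table matched 17738 of 17741 identifiers.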

Additional observations from a re-analysis of the deposited data

Results flagged for a closer look

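For 3 genes the morphotypes differed from their own control in opposite directions, with the 95% counting intervals of the ratios not reaching 1 in either. Under rotifers CRD1 had a log2 fold change of -1.21 in single cells and 1.06 in cell groups. In low nitrogen CTH1 had 1.36 in single cells and -0.60 in cell groups, and CTR2 had 0.48 in single cells and -0.50 in cell groups. This was 1 of the 6 tested members under rotifers and 2 in low nitrogen, where 10.4% and 17.2% of all tested genes met the same rule. Each value compares 1 library with 1, and the difference between the morphotypes was not tested, since the design leaves no residual degrees of freedom for it. Within a morphotype the rotifer and low-nitrogen values share the control library.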

How the results depend on the processing

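The 1077 genes called between the morphotypes became 1732 with DESeq2, which held all of them, and DESeq2 called 83, 53 and 55 genes for rotifer against control, low nitrogen against control and rotifer against low nitrogen where edgeR called 0. CTR2 was called under RLE size factors, no filter, DESeq2, limma and no covariate. With a pseudocount of 2 the tested members past 2-fold went from 2 to 1 for low nitrogen in single cells and from 1 to 0 for rotifers in cell groups, and with library totals alone from 2 to 1 between the morphotypes in low nitrogen. Leaving out 1 library at a time, which can also drop its treatment or morphotype partner from the contrast, gave 138 (without the single cell rotifer library) to 1999 (without the cell group control) genes called between the morphotypes and 0 to 2 members. It gave 0 to 1011 genes and 0 to 1 members for rotifer against control, 0 to 614 genes for low nitrogen against control and 0 to 12 for rotifer against low nitrogen, the highest count each time without the cell group control. The log2 fold changes whose sign turned were, between the morphotypes, those of CRD1 (-1.03 to 0.14), CTH1 (-0.99 to 0.045) and CTR1 (-0.055 to 0.37). For rotifer against control they were those of CPX1 (-0.074 to 0.50), CRD1 (-0.97 to 0.85), CRR1 (-0.27 to 0.089) and CTR2 (-0.66 to 0.14). For low nitrogen against control they were those of CRD1 (-1.29 to 0.48), CTH1 (-0.55 to 1.32) and CTR2 (-0.39 to 0.38), and for rotifer against low nitrogen those of CRD1 (-0.52 to 1.21), CTR1 (-0.71 to 0.011) and CTR2 (-0.62 to 0.094). The cause of these changes beyond the libraries left out was not tested. With 1 library per condition, the response to a treatment cannot be tested within a morphotype, and depth limits CYC6 and, less so, CRD1.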
